A study of Mus musculus with 12 samples.

Results

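The Rasgef1 and Cdc42ep gene families of small GTPase signalling were followed in the striatum of mice after repeated morphine. They encode the exchange factors Rasgef1a, Rasgef1b and Rasgef1c and the Cdc42 effector proteins (Cdc42ep1 to Cdc42ep5, also called Borg proteins). Members were taken by gene symbol from the platform annotation, which gave 9 probe sets for 8 genes, out of 21780 probe sets with a single symbol for 19935 genes. Cdc42ep5 had 2 probe sets and each of the other genes had 1. The families were chosen by the measured differences from saline of Rasgef1b, Cdc42ep1 and Cdc42ep2, which were among the leading falls in these same arrays, Rasgef1b after either treatment, Cdc42ep1 after morphine alone and Cdc42ep2 after butyrate with morphine. The values of these 3 genes are therefore a description, and where counts over all members include their calls nothing is read from them. The other 5 genes joined by family name.

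RNA was taken from the striatum, a forebrain region with dense dopamine input, of male Swiss-Albino mice aged 2 months, with 4 animals to a pool and 1 pool to an Affymetrix Mouse Gene 1.0 ST array. The butyrate-morphine group (3 arrays) received sodium butyrate at 300 mg/kg, an inhibitor of histone deacetylases, right before morphine at 20 mg/kg in each of 6 induction trials on alternate days, and a morphine challenge 7 days later. The morphine group (3 arrays) received vehicle in place of butyrate and was otherwise treated alike. The saline group (6 arrays) received vehicle only in the induction. All groups gave RNA 1 h after the challenge injection, which the source names give as saline for the saline group and the protocol text as morphine for all animals. A difference from saline may thus hold the acute morphine injection as well as the repeated ones.

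Small GTPases such as Ras, Rap and Cdc42 switch signalling on when they bind GTP. Exchange factors such as the Rasgef1 proteins load them with GTP, and the human Rasgef1 proteins tested in vitro act on Rap2, a relative of Ras that shapes dendrites and synapses. Effectors read the GTP-bound form. The Cdc42ep proteins bind active Cdc42 through a short motif, bind septins as well, and help to organise septin and actin filaments, on which dendritic spines and cell shape depend.

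Each value below is a log2 difference from the saline mean. The deposited values are centred in a way that makes saline arrays 1 and 2, 3 and 4, and 5 and 6 mirror each other within 1e-06, so the saline mean and median are 0 for every gene and the 6 arrays hold 3 independent values. The centring removed the level of each gene apart from a coarse class: Rasgef1a and Rasgef1b were stored at 8 or more, and the other 7 probe sets between 4 and 8. Of 10 probe sets for medium spiny neuron markers, the main neurons of the striatum, 9 were in the class of 8 or more, beside 26.2% of all tested probe sets. None of the 8 choroid plexus probe sets was in that class. Whether the labelled pools were raised or dosed apart is unknown, and p-values below rest on the variation among these pools alone, which may be technical.

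The promoters of the 3 genes that chose the families are shown to let their sequence composition be compared, as 250 bases before to 50 bases after the transcription start from RefSeq (build GRCm38.p6). Rasgef1b lies at chr5:99252878-99253177 on the minus strand, Cdc42ep1 at chr15:78842397-78842696 on the plus strand and Cdc42ep2 at chr19:5924767-5925066 on the minus strand. Capitals mark GC boxes (GGGCGG on either strand), the Egr1 motif GCGTGGGCG and the CRE core TGACG.
Rasgef1b: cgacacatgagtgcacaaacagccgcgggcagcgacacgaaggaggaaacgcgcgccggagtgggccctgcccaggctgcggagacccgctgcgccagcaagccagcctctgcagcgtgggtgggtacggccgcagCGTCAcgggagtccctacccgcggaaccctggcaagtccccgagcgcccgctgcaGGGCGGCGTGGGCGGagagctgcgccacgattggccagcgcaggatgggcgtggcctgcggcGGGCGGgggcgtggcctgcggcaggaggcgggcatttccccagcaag
Cdc42ep1: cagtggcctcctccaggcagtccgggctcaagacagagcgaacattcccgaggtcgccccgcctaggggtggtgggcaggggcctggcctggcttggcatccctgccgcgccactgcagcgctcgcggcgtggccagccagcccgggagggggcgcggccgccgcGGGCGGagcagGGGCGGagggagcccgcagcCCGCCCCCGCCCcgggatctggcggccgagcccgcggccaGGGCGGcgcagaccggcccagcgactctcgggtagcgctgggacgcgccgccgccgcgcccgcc
Cdc42ep2: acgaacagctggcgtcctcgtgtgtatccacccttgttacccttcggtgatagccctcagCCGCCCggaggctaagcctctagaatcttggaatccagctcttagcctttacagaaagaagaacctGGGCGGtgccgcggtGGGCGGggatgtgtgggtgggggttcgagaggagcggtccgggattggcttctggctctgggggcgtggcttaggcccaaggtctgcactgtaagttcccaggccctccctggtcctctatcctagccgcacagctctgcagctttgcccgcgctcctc

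All 3 windows held GC boxes, 3 in Rasgef1b, 5 in Cdc42ep1 and 3 in Cdc42ep2, and GC made up 73.3%, 80.0% and 61.7% of their bases. A GC box stood in 35.7% of all 32851 promoter windows of 300 bases. Genes that joined by family name had them too: 4 in each Rasgef1a window, 2 and 3 in those of Rasgef1c and 5 in Cdc42ep3. The windows of Cdc42ep4 and Cdc42ep5 held none. Rasgef1b alone among the 11 windows of the 8 genes held the Egr1 motif, 54 to 46 bases before the start, where it overlaps a GC box at each end. That motif stood in 0.612% of all windows. The same Rasgef1b window held a CRE core on the reverse strand, a motif found in 20.8% of all windows. No window of the 8 genes held the full CRE TGACGTCA (1.79% of all windows), the E-box CACGTG (7.15%), the AP-1 motif TGANTCA (7.81%), the glucocorticoid core AGAACA (19.0%) or the full glucocorticoid response element (0.00913%). Both strands were searched, and the motifs were chosen after the sequences were seen.

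Rasgef1b, an exchange factor that Toll-like receptors induce in mouse macrophages, was at -0.44, -0.54 and -0.54 in butyrate-morphine arrays 1 to 3. It was at -0.50, -0.61 and -0.63 in morphine arrays 1 to 3, against -0.16 to 0.16 in the saline arrays. Every array of either treated group lay below every saline array. The means were -0.51 ± 0.06 with butyrate-morphine and -0.58 ± 0.07 with morphine (SD, n = 3 each), or 0.704 and 0.668 of the saline level. Of the 8 genes it had the lowest mean in either group. In these pooled tissue samples, fewer cells of a type and less RNA per cell cannot be told apart.

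Rasgef1a had values of -0.16, 0.05 and 0.04 in butyrate-morphine arrays 1 to 3. Its values under morphine were -0.23, -0.30 and -0.14, against -0.08 to 0.08 in saline. The morphine arrays lay below all saline arrays, while butyrate-morphine arrays 2 and 3 lay within the saline range and array 1 overlapped the morphine arrays. The mean was -0.03 ± 0.12 with butyrate-morphine and -0.22 ± 0.08 with morphine (SD, n = 3 each). Against saline, limma gave morphine a difference of -0.22 with adjusted p = 0.0562, just short of the threshold of 0.05, and butyrate-morphine one of -0.03 with adjusted p = 0.873. Without butyrate-morphine array 1 the morphine difference passed (adjusted p = 0.0323), and over single-array omissions its adjusted p reached 0.155. It also passed when only the groups compared were fitted (adjusted p = 0.0478).

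Rasgef1c, the third family member, was at -0.17, -0.07 and -0.12 under butyrate-morphine. Under morphine it was at -0.01 in array 1, -0.43 in array 2 and -0.35 in array 3, against a saline range of -0.17 to 0.17. Morphine array 1 stood apart from the other 2 and lay inside the saline range. The morphine difference of -0.26 had adjusted p = 0.124 in limma. It was -0.39 with adjusted p = 0.00736 without morphine array 1, a fit with 1092 calls over all probe sets in place of 534. Thalamic neuron markers, from tissue next to the striatum, had means of 0.13, 0.51 and 0.65 in morphine arrays 1 to 3. In butyrate-morphine arrays 1 to 3 their means were 0.46, -0.03 and 0.23. Cortical neuron markers had means of 0.11, -0.76 and -0.24 in the morphine arrays and -0.06, 0.11 and 0.0036 in the butyrate-morphine arrays. The part of either list in this difference was not tested. The butyrate-morphine difference was -0.12 (adjusted p = 0.500).

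Cdc42ep1 (Borg5), which takes part in blood vessel growth in mice, was at -0.10, -0.40 and -0.30 in butyrate-morphine arrays 1 to 3. Under morphine it was at -0.50, -0.48 and -0.40, against a saline range of -0.11 to 0.11. All morphine arrays were below saline, while butyrate-morphine array 1 was inside the saline range. The means were -0.27 ± 0.16 with butyrate-morphine and -0.46 ± 0.05 with morphine (SD, n = 3 each), or 0.831 and 0.728 of saline.

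Cdc42ep2 (Borg1) was at -0.40, -0.39 and -0.36 in the butyrate-morphine arrays. Under morphine it was at -0.25, -0.22 and -0.34, against a saline range of -0.10 to 0.10. Here the order of the treated groups was the opposite of Cdc42ep1: every butyrate-morphine array lay below every morphine array, and both groups lay below saline. The means were -0.38 ± 0.02 with butyrate-morphine and -0.27 ± 0.06 with morphine (SD, n = 3 each), or 0.767 and 0.828 of saline.

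Cdc42ep3 (Borg2) was at -0.11, -0.05 and 0.15 under butyrate-morphine. Under morphine it was at -0.21, -0.48 and -0.04, and its saline range of -0.21 to 0.21 was the widest of the 9 probe sets. All groups overlapped. Its morphine difference of -0.24 had adjusted p = 0.275 and its butyrate-morphine difference of -0.0044 had adjusted p = 0.991 in limma.

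Cdc42ep4 (Borg4), an astrocyte and Bergmann glia protein in mice, was at 0.03, -0.19 and 0.10 under butyrate-morphine. Under morphine it was at -0.0089, 0.13 and 0.07, against a saline range of -0.16 to 0.16. Its groups overlapped throughout. Astrocyte markers had a mean of 0.02 to 0.12 in butyrate-morphine arrays and 0.03 to 0.10 in morphine arrays, against -0.04 to 0.04 in saline. Of these 9 markers only Gjb6 passed, at 0.31 with butyrate-morphine and 0.41 with morphine. Sox9, S100b and Slc1a2 had means below saline in both groups. Cdc42ep4 was the 1 member with a positive morphine difference, 0.06 with adjusted p = 0.755, and its butyrate-morphine difference was -0.02 with adjusted p = 0.936.

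The 2 probe sets of Cdc42ep5 (Borg3) did not behave alike. Probe set 10549633 was at -0.06, -0.18 and -0.17 under butyrate-morphine. Under morphine it was at -0.28, 0.41 and -0.18, against a saline range of -0.11 to 0.11. Morphine array 2 was the single high value, and the SD of the morphine group was 0.37. In the same array cortical neuron markers had a mean of -0.76, beside 0.11 and -0.24 in the other morphine arrays. Thalamic neuron markers had a mean of 0.51 there, beside 0.13 and 0.65. The part of either list in this value was not tested. Probe set 10559509 stayed between -0.06 and 0.05 in all 12 arrays. Adjusted p was 0.600 and 0.971 for the first and 0.589 and 0.948 for the second, for butyrate-morphine and morphine against saline.

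**Figure D1:**
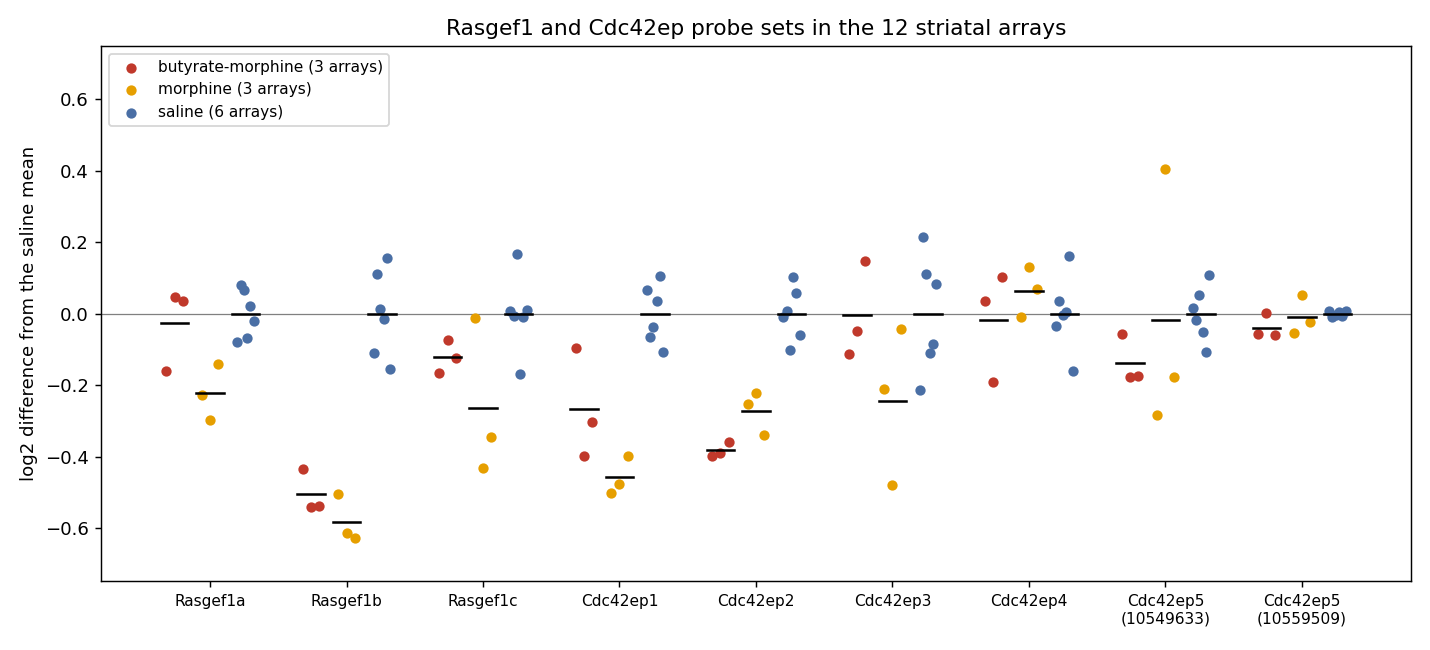
Log2 difference from the saline mean (vertical axis) for each of the 9 probe sets, with 1 point per array and a black bar at the group mean, for butyrate-morphine (3 arrays, left), morphine (3 arrays, middle) and saline (6 arrays, right). Rasgef1b and Cdc42ep2 lie below saline in all 6 treated arrays, Cdc42ep1 in 5 of them, and morphine array 2 stands alone at 0.41 for Cdc42ep5 probe set 10549633.

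Of the 9 probe sets, 9 had a mean below saline with butyrate-morphine (median -0.12) and 8 with morphine (median -0.24). The medians over all tested probe sets were 0.0071 and -0.0033, with 46.0% and 52.0% below 0. The 9 probe sets include those of the 3 genes chosen for low values, so nothing is read from their direction counts and medians. In limma 3 of the 9 probe sets passed with butyrate-morphine, beside 2.35% of all probe sets, and 3 passed with morphine, beside 2.45%. The calls were those of Rasgef1b, Cdc42ep1 and Cdc42ep2, all lower, which follow from the choice of these genes, so nothing is read from these counts. Over all probe sets, 0.592% were lower and 1.76% higher with butyrate-morphine, and 1.15% lower and 1.3% higher with morphine, and the 2 comparisons share the saline arrays. The arrays did not overlap with saline, all lower, for 2 probe sets with butyrate-morphine (4.57% of all probe sets) and 4 with morphine (4.17%). Those with morphine were Rasgef1a, Rasgef1b, Cdc42ep1 and Cdc42ep2, of which only Rasgef1a joined by family name.

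The comparison of butyrate-morphine with morphine asks whether butyrate in the induction changed the response to morphine. None of the 9 probe sets passed in limma, as was true of all 21780 probe sets (0%). Over all probe sets there were 27 calls without morphine array 1 and 12 without morphine array 3, and 0 among the 9 in either fit. At an unadjusted p under 0.05 there were 8.71% of all probe sets and, among the 6 probe sets of genes that joined by name, Rasgef1a alone. Rasgef1a differed by 0.20 (95% interval 0.06 to 0.34, unadjusted p = 0.00907, adjusted p = 0.427), with butyrate-morphine nearer to saline. Cdc42ep3 differed by 0.24 (-0.02 to 0.50, adjusted p = 0.607) and Rasgef1c by 0.14 (-0.06 to 0.35, adjusted p = 0.724). Cdc42ep4 differed by -0.08 (-0.26 to 0.09, adjusted p = 0.836). The interval of Cdc42ep5 probe set 10549633 was -0.40 to 0.17 and that of 10559509 was -0.11 to 0.05.

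Of the genes chosen for low values, Cdc42ep1 differed by 0.19, Rasgef1b by 0.08 and Cdc42ep2 by -0.11. Cdc42ep1 was chosen for its morphine arrays and Cdc42ep2 for its butyrate-morphine arrays, which by itself moves these differences up and down in that order, so nothing is read from them. Cdc42ep2 was the 1 probe set of the 9 whose butyrate-morphine arrays all lay below the morphine arrays, as did those of 3.11% of all probe sets.

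**Figure D2:**
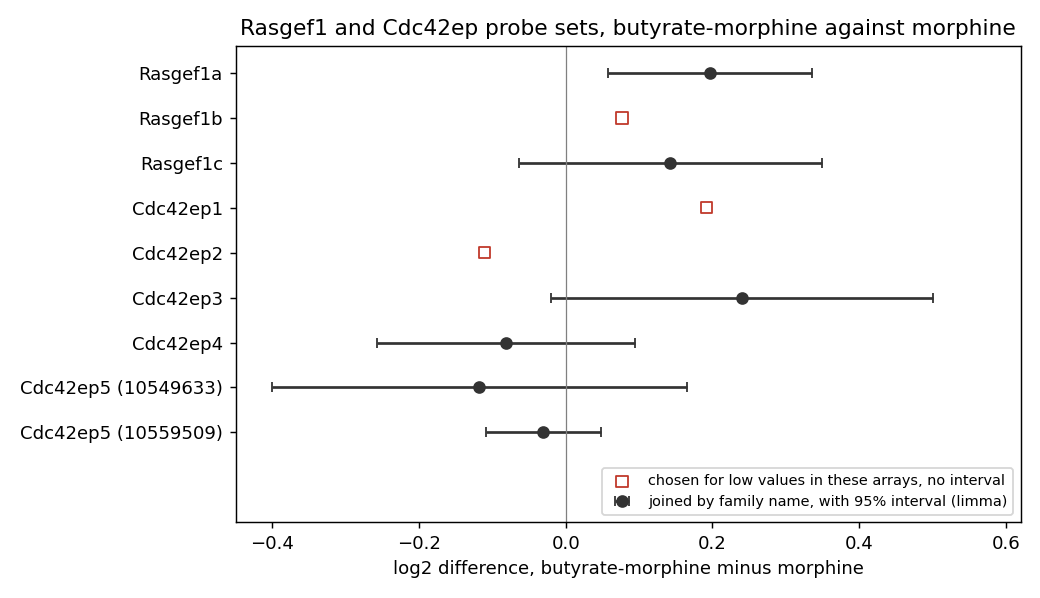
Log2 difference of butyrate-morphine minus morphine (horizontal axis) for each probe set. Filled circles with 95% intervals from limma are genes that joined by family name, and open squares are the 3 genes chosen for low values in these arrays; the interval of Rasgef1a runs from 0.06 to 0.34, and those of Rasgef1c, Cdc42ep3, Cdc42ep4 and Cdc42ep5 include 0.

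The partners of these proteins were taken from 6 lists of genes for Cdc42 and Ras-type signalling. Over all probe sets 2.35% passed with butyrate-morphine and 2.45% with morphine. Among 23 probe sets for other Cdc42 effectors, 0 passed with butyrate-morphine and 1 rose with morphine. This was Pak3, a neuronal kinase that active Cdc42 and Rac switch on, at 0.15 with butyrate-morphine (adjusted p = 0.117) and 0.28 with morphine (1.21-fold, adjusted p = 0.00654). After quantile normalization Pak3 was at 0.21 with morphine and was not called (adjusted p = 0.314). Pard6a, a polarity protein that binds active Cdc42 and was named after its values were seen, was at -0.23 with butyrate-morphine (adjusted p = 0.0641) and passed without butyrate-morphine array 2 (-0.31, adjusted p = 0.0307). At an unadjusted p under 0.05 there were 17.2% of all probe sets with butyrate-morphine and 15.4% with morphine. These are the shares beside which the next counts stand. Of the 23 probe sets for other Cdc42 effectors, 6 and 6 were at an unadjusted p under 0.05. Of 12 septin probe sets, whose products the Cdc42ep proteins bind, 0 passed in either comparison, with 2 and 4 at an unadjusted p under 0.05. The septins with the lowest p were Septin10 (0.19 with butyrate-morphine, adjusted p = 0.0799) and the neuronal Septin3 (-0.15 with morphine, adjusted p = 0.184). Septin10 passed without butyrate-morphine array 3 (adjusted p = 0.0382). Of 19 probe sets for Cdc42 exchange factors 0 passed, with 2 and 3 at an unadjusted p under 0.05. Vav1, an exchange factor of blood and immune cells, was at -0.10 with butyrate-morphine and -0.16 with morphine (adjusted p = 0.117), and passed without morphine array 2 (adjusted p = 0.0362). Dock9 was at 0.13 with butyrate-morphine (adjusted p = 0.228) and 0.07 with morphine.

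Over all probe sets 1.76% rose and 0.592% fell with butyrate-morphine, and 1.3% rose and 1.15% fell with morphine. At an unadjusted p under 0.05 there were 17.2% and 15.4%. Of 21 probe sets for other Ras, Rap and Ral exchange factors, 4 and 8 were at an unadjusted p under 0.05. In this list 2 rose and 0 fell with butyrate-morphine, and 2 rose and 1 fell with morphine. The fall was Rasgrp2, a calcium-regulated Rap exchange factor abundant in the striatum, at -0.08 with butyrate-morphine (adjusted p = 0.396) and -0.31 with morphine (0.809 of saline, adjusted p = 0.00433). After quantile normalization Rasgrp2 was at -0.23 with morphine and was not called (adjusted p = 0.263). Kndc1, a dendritic Ras exchange factor, rose by 0.31 with butyrate-morphine (adjusted p = 0.0207) and by 0.26 with morphine (adjusted p = 0.0458). Rapgef3 (Epac1), a cAMP-gated Rap exchange factor, rose by 0.19 with butyrate-morphine (adjusted p = 0.0385) and by 0.17 with morphine (adjusted p = 0.0494). Kndc1 was lost without butyrate-morphine array 1 or 2 in the first comparison, and in the second it passed only without butyrate-morphine array 1 or 3 or morphine array 1. Rapgef3 passed without any 1 of the morphine arrays or saline arrays 1 and 6 in the first, and only without saline array 1 in the second. Without morphine array 1 the list had 1 rise and 3 falls with morphine, the falls of Rasgrp1 and Rapgef5 being added. Over all probe sets that fit gave 1092 calls with morphine, in place of 534. Without morphine array 2 Rasgrf2 and Sos1 passed as higher, and without morphine array 3 Rasgrp3 passed as lower. Over all probe sets these fits gave 500 and 219 calls. In the fit without morphine array 1, Fmnl1 and Baiap2 of the other Cdc42 effectors also passed as lower. So did probe set 10595981 of Mras, a Ras-type GTPase. Its other probe set, 10595979, was at 0.02 with morphine in limma over all arrays (adjusted p = 0.904). The 8 genes gained in these fits were named after their values were seen.

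The list of Ras, Rap and Ral GTPases, with their Rheb, Rit and Rasd relatives (17 probe sets), had 2 rises and 0 falls in each comparison. Rises over all probe sets were 1.76% with butyrate-morphine and 1.3% with morphine. At an unadjusted p under 0.05 the list had 7 and 4, beside 17.2% and 15.4% of all probe sets. Rasd1 (Dexras1), a Ras relative first found through its induction by dexamethasone, was at 0.42 ± 0.20 with butyrate-morphine (1.34-fold, adjusted p = 0.037) and 0.64 ± 0.22 with morphine (1.56-fold, adjusted p = 0.0035). Nras rose by 0.20 with butyrate-morphine (adjusted p = 0.0428) and was at -0.05 with morphine (adjusted p = 0.702). Rit2, a neuronal Ras relative, was at 0.19 with butyrate-morphine (adjusted p = 0.131) and rose by 0.29 with morphine (adjusted p = 0.0271). With butyrate-morphine, Rasd1 passed only without butyrate-morphine array 2, saline array 3 or any morphine array, and Nras only without butyrate-morphine array 3 or any morphine array. Rit2 with morphine was lost without morphine array 2 or 3 or saline array 1, 2, 4 or 6. With butyrate-morphine Rit2 passed without morphine array 3 (adjusted p = 0.0485). Of 15 probe sets for Ras and Rap GTPase-activating proteins 0 passed, with 2 and 4 at an unadjusted p under 0.05, beside the same 17.2% and 15.4%. Without morphine array 1, Rasa3 fell with morphine, as did Rap1gap2 and Sipa1l1, named after their values were seen (adjusted p = 0.0181 for Rasa3 there and 0.0612 over all arrays). That fit gave 1092 calls over all probe sets, in place of 534. Rap1gap was at 0.13 with butyrate-morphine (adjusted p = 0.109) and -0.05 with morphine. After quantile normalization the calls of Kndc1, Rapgef3, Nras and Rit2 were lost too, as was that of Rasd1 with butyrate-morphine, while Rasd1 with morphine passed.

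**Figure D3:**
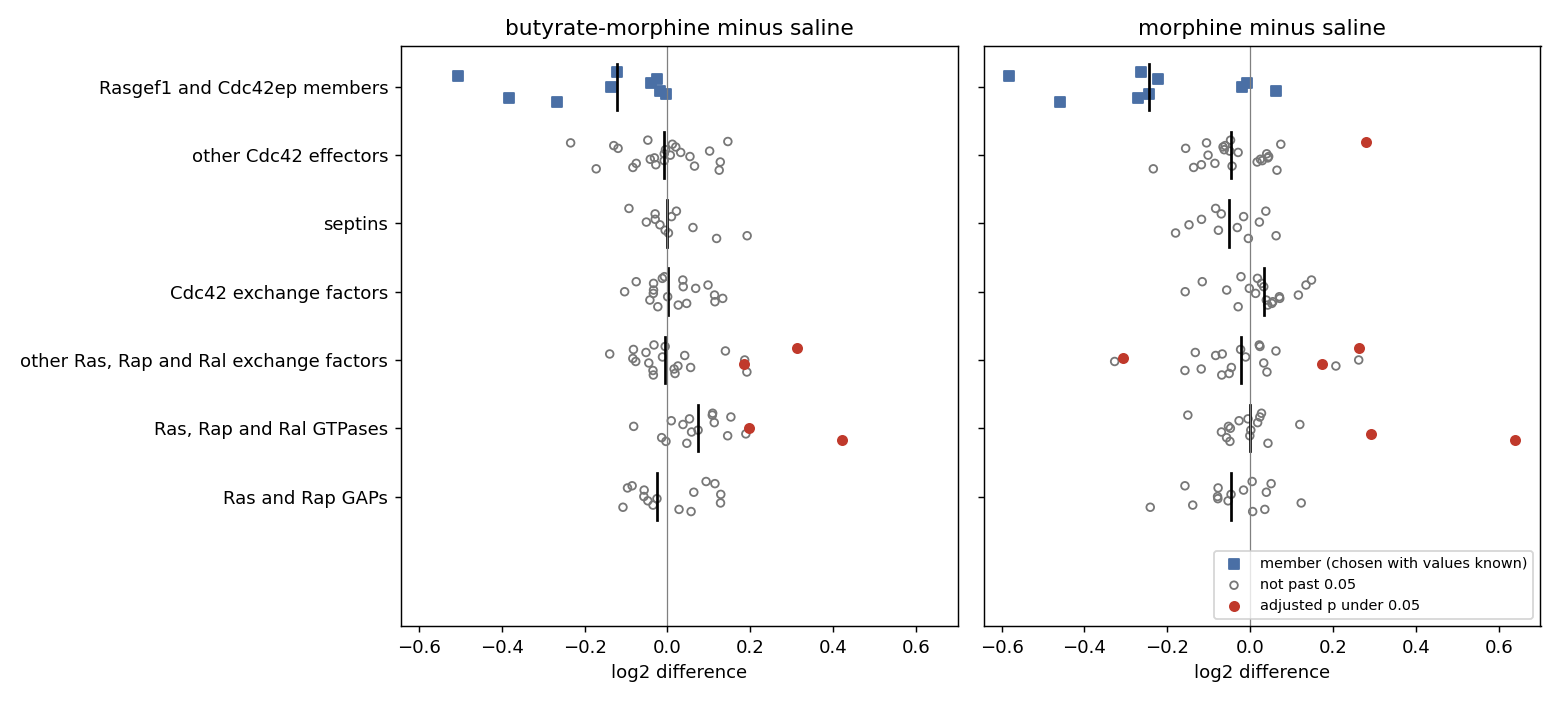
Log2 difference from saline (horizontal axis) of every probe set of the 2 families and of the 6 lists, with butyrate-morphine on the left and morphine on the right; black bars are medians, red points have adjusted p under 0.05 in limma, and squares are the 9 member probe sets, whose calls are not marked. List medians lie between -0.05 and 0.07, and Rasd1 is the point farthest to the right in either panel. The median of the members includes the genes chosen for low values.

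The genes most like the 3 described members were ranked by Pearson correlation over the 12 arrays, which share their group means and mirrored saline pairs, so the coefficient is a measure of likeness only. For Rasgef1b they were Nwd2 (0.973), the chemokine Cxcl12 (0.971), the innate immune adaptor Sting1 (0.962), Zswim5 (0.954) and the NMDA receptor subunit Grin2c (0.954). Within the 6 treated arrays these coefficients were 0.697, 0.601, 0.512, 0.660 and 0.703. For Cdc42ep1 they were the endothelial receptors Flt1 (0.955) and Tek (0.949), the pericyte gene Rgs5 (0.943), Id3 (0.939) and Cavin3 (0.932), with 0.827, 0.950, 0.961, 0.804 and 0.663 within the treated arrays. For Cdc42ep2 they were the endothelial tight junction gene Cldn5 (0.952), the clock gene Arntl (0.945), Ciao3 (0.937), Cyth4 (0.936) and Sting1 (0.936), with 0.863, 0.610, 0.472, 0.816 and 0.128 within the treated arrays. Cldn5 had the same order of groups as Cdc42ep2, at -0.74 with butyrate-morphine and -0.57 with morphine, and was the 1 endothelial marker of 8 that was lower with butyrate-morphine than with morphine. Flt1 had that of Cdc42ep1, at -0.18 with butyrate-morphine and -0.30 with morphine, as had Tek at -0.28 and -0.38. That order was shared by 7 of the 8 endothelial markers, and 43% of all probe sets were lower with butyrate-morphine than with morphine. Cldn5, Flt1 and Tek are named here for their likeness to members whose own order follows partly from their choice. Nothing is therefore read from the shared orders.

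The lists of vessel and microglia markers had lower means in the same arrays as these members, though not every marker passed. Of 8 endothelial markers, 4 fell with butyrate-morphine and 4 with morphine (Kdr, Flt1, Tek and Cldn5 in each). Falls over all probe sets were 0.592% and 1.15%. The rest did not pass: Pecam1 was at 0.08 with butyrate-morphine and -0.15 with morphine, and Cdh5 at -0.07 and -0.20. Abcb1a was at -0.02 and -0.08, and Slco1c1 at -0.0047 and -0.04. The mean of the endothelial list was -0.26 to -0.16 in butyrate-morphine arrays and -0.33 to -0.25 in morphine arrays, against -0.05 to 0.05 in saline. Of 9 microglia markers, 2 fell with butyrate-morphine and 3 with morphine, with a mean of -0.20 to -0.15 and of -0.25 to -0.16, against -0.07 to 0.07 in saline. Medium spiny neuron markers had 0 and 4 falls among 10, with a mean of -0.05 to -0.0013 in butyrate-morphine arrays and -0.18 to -0.13 in morphine arrays, against -0.05 to 0.05 in saline. Choroid plexus markers, by contrast, had 7 and 8 rises among 8 and a mean of 0.96 to 1.26 and of 1.30 to 1.54, against -0.14 to 0.14 in saline. The part of these cell types in the members' values was not tested, and centring leaves no level from which to say that a marker was at 0.

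The 3 members were chosen for low values in these arrays, so their place relative to the mean of a list not chosen that way is given as values alone. Rasgef1b minus the endothelial mean ran from -0.29 to -0.28 in butyrate-morphine arrays and from -0.37 to -0.17 in morphine arrays, against -0.14 to 0.14 in saline. Some single endothelial markers were about as low as Rasgef1b or lower. Kdr averaged -0.59 with butyrate-morphine and -0.64 with morphine, and Cldn5 -0.74 and -0.57. All other endothelial markers averaged above Rasgef1b in both groups. They ran from -0.28 (Tek) to 0.08 (Pecam1) with butyrate-morphine and from -0.38 (Tek) to -0.04 (Slco1c1) with morphine. Cdc42ep1 minus the endothelial mean ran from -0.15 to 0.06 in butyrate-morphine arrays and from -0.23 to -0.10 in morphine arrays, against -0.09 to 0.09 in saline. For Cdc42ep2 that difference ran from -0.24 to -0.10 in butyrate-morphine arrays and from -0.04 to 0.08 in morphine arrays, against -0.05 to 0.05 in saline.

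**Figure D4:**
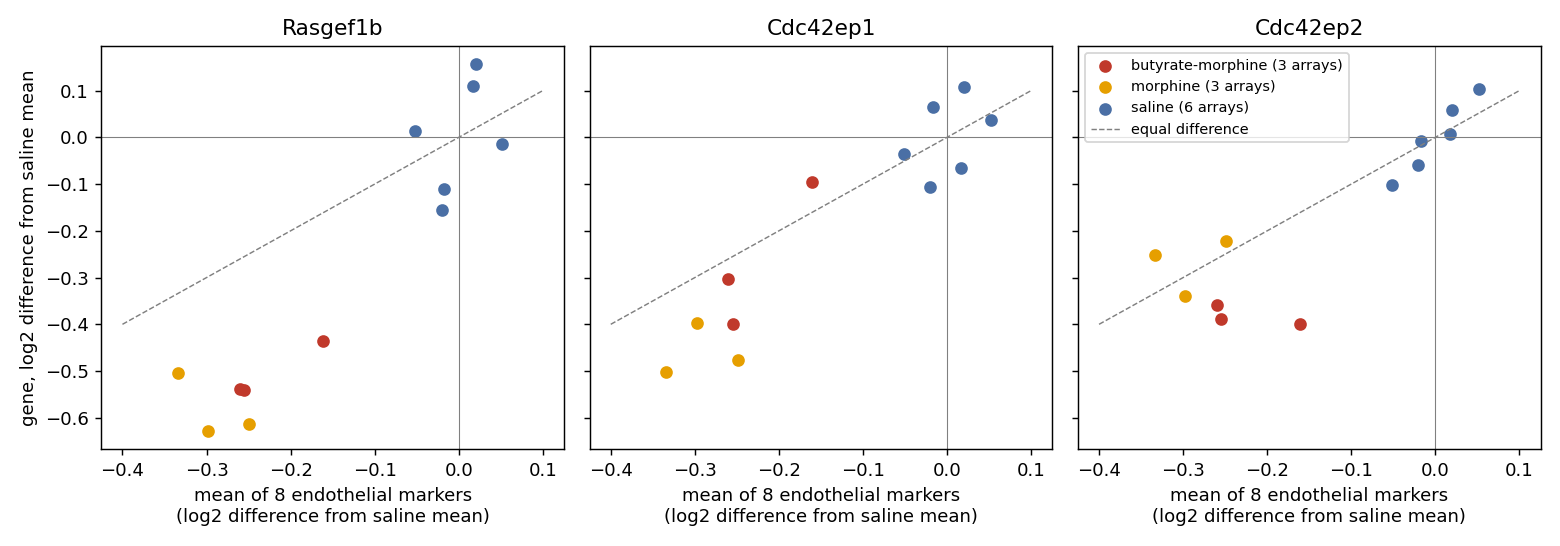
Log2 difference from the saline mean of Rasgef1b, Cdc42ep1 and Cdc42ep2 (vertical axis) against the mean of 8 endothelial markers in the same array (horizontal axis), 1 point per array; the dashed line marks an equal difference. The genes were chosen for low values in the treated arrays, which all lie below the line for Rasgef1b and on both sides of it for Cdc42ep1 and Cdc42ep2.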

How the data were processed

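Striatal RNA from 12 pools was hybridised to 1 array each, per the labels' protocols. The authors deposited 1 table of 28815 rows of centred log values. These deposited values were read as log2, since their rounding steps fit stored values of 4 to 16; the sources used here do not name the background correction, the normalization or the log base. Rows with 1 gene symbol in the platform annotation were tested (21780), and 1605 with several symbols and 5430 with none were left out. All 9 member probe sets matched RefSeq by Entrez ID with unchanged symbols.

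Group differences came from limma 3.58.1 under R 4.3.3 (lmFit and eBayes, all 12 arrays, 1 shared spread, 9 residual degrees of freedom), two-sided, with Benjamini-Hochberg adjustment over all tested probe sets and a threshold of 0.05. The procedure was tested on simulated data. The number of arrays limits the precision. The limma fit counted the 6 saline arrays as separate, though they hold 3 independent values. Its p-values and intervals therefore rest partly on repeated values. With mirrored saline arrays counted once and the saline mean held at 0, 674 probe sets passed with butyrate-morphine and 660 with morphine. The main fit gave 512 and 534. Holding the saline mean at 0 takes it as known without error, which by itself narrows the intervals. The higher counts therefore do not show that the main fit was cautious. The members, lists and markers were chosen with earlier results of these data known. From each list the text names up to 6 probe sets past the threshold, lowest p first, or else the 2 with the lowest p, and for each of 3 members the 5 genes most like it; further markers were named after their values were seen. Further pathway lists are not reported here. Where markers had several probe sets per gene, these were averaged.

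Alternatives were median centring, quantile normalization, all rows, the brighter class of stored values, eBayes with trend and robust, a fit of only the groups compared, a block for replicate number, 1 value per gene and each array left out; counting mirrored saline arrays once was added after seeing the data.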

Additional observations from a re-analysis of the deposited data

How the results depend on the processing

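In the comparison of butyrate-morphine with morphine, 0 member probe sets were called under all 21 alternatives. Against saline, the count of 3 members with butyrate-morphine was 2 to 3 when 1 array was left out, 1 (of 2 members present) when only the brighter class of stored values was tested, and 0 with the replicate block. With morphine it was 2 to 4 when 1 array was left out, 0 after quantile normalization and 1 with the replicate block. Replicate numbers were not taken as pairs, because the deviations of same-numbered arrays from their group means correlated at -0.27 to 0.20. Numbers 4 to 6 exist in saline alone, so under the block these arrays add nothing to the differences from saline. The block also uses up degrees of freedom, so calls lost under it cannot be told apart from this loss of information. Over all probe sets the block left 38 calls with butyrate-morphine and 49 with morphine, in place of 512 and 534, and every list gene called in the report lost its call under it, Pak3 (adjusted p = 0.213) and Rasgrp2 (adjusted p = 0.0791) among them. Quantile normalization left 97 and 70, eBayes with trend and robust 218 and 222, and the brighter class, with fewer probe sets tested, 182 and 209. Fits without an array gave 206 to 807 and 219 to 1092, and only the groups compared gave 1134 and 443. Rasgef1a with morphine passed in limma under 4 alternatives. Of these, 1 left out butyrate-morphine array 1 and 1 fitted only the groups compared. The others were the brighter class (adjusted p = 0.0392) and mirrored saline arrays counted once (adjusted p = 0.0418). The last takes the saline mean as known without error.

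Across 546 recomputed differences of members, 507 kept direction and side of the threshold, 19 lost and 5 gained a call, and 15 changed sign, none of them called; for the named list genes these were 710, 82, 6 and 6 of 804. After quantile normalization Rasgef1b differed by -0.0188 between butyrate-morphine and morphine. Leaving out 1 array gave ranges that cross 0 for butyrate-morphine against saline of -0.0801 to 0.0497 (Cdc42ep3), -0.078 to 0.068 (Cdc42ep4), -0.062 to 0.042 (Rasgef1a) and -0.0515 to 0.0177 (Septin3). For morphine against saline they were -0.231 to 0.114 (Cdc42ep5 probe set 10549633), -0.0384 to 0.015 (probe set 10559509) and -0.00204 to 0.134 (Dock9). For butyrate-morphine against morphine they were -0.141 to 0.00471 (Cdc42ep4), -0.25 to 0.0943 (Cdc42ep5 probe set 10549633), -0.000216 to 0.135 (Dock9), -0.0315 to 0.123 (Kndc1) and -0.00478 to 0.0284 (Rapgef3). Leaving out a saline array leaves its mirrored partner in the fit. The causes of these changes were not tested.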
